A study of Rattus norvegicus and Mus musculus with 17 samples.

Results

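Liver is the main site at which proline, tryptophan, tyrosine and histidine are taken apart, and 9 genes for enzymes of these 4 routes are described here in mouse liver tumours, a rat hepatoma and regenerating rat liver. They were chosen by symbol: Prodh and Prodh2 for proline and hydroxyproline, Afmid, Kmo and Haao for the kynurenine route of tryptophan, Hpd, Hgd and Fah for tyrosine, and Hal for histidine. All 9 were found among 11532 gene symbols in the 3 deposited tables. The mouse table listed 7 of them among 4649 genes, without Kmo and Hal. The hepatoma table listed all 9 among 9082 genes, and the regeneration table listed 1, Prodh2, among 2093 genes. Each table holds only genes whose deposited p-value in that same comparison was under 0.05. A listed gene therefore had to differ between its groups, and genes outside a table carry no value.

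The mouse groups were 3 liver libraries taken at 5 months, before tumours, and 3 libraries from tumour-bearing liver at 8 months. All of these male C57BL/6 mice had received the carcinogen diethylnitrosamine (DEN, 50 mg/kg) at 14 days of age and, 30 days later, TCPOBOP (2 mg/kg), an activator of the nuclear receptor CAR that promotes liver tumours. Age and the presence of tumours thus changed together and cannot be told apart, and no mouse group without DEN and TCPOBOP was compared. The rat groups, all male ACI animals, were 3 libraries of untreated control liver, 4 of Morris hepatoma and 4 of liver regenerating after partial hepatectomy. The hepatoma came from 1 cell line, MH3924a, of which 1000000 cells were injected into the liver of rats 10 weeks old and the tumour taken 2 weeks later. Rats of the regeneration group were 10 to 12 weeks old, and their liver was taken 24 hours after part of it had been removed. Nothing in the labels ties each library to its own animal, and p-values here reflect only library-to-library spread, which may be technical. In bulk tissue, fewer cells of a type and less RNA per cell cannot be told apart.

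As background, each route feeds an amino acid into central metabolism. Proline dehydrogenase (Prodh) in mitochondria starts the oxidation of proline to glutamate, while hydroxyproline dehydrogenase (Prodh2) starts the breakdown of hydroxyproline, a product of collagen turnover, towards glyoxylate and pyruvate. Tryptophan opened by a dioxygenase becomes kynurenine through Afmid, then 3-hydroxykynurenine through Kmo, and Haao makes the precursor of quinolinate, from which liver can build NAD. Hpd, Hgd and Fah are successive enzymes of tyrosine breakdown, with loss of Fah causing hereditary tyrosinaemia type I, and Hal removes ammonia from histidine to give urocanate.

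Levels are RPKM, reads normalised to transcript length and library size, and errors of levels are SD over libraries. Differences are log2 fold changes of RPKM + 1 with their SE from limma, fitted across every gene of a table with at least 1 RPKM in n libraries, where n is the size of the smaller group. Their p-values were adjusted by the Benjamini-Hochberg method over all annotated protein-coding genes, and an adjusted p under 0.05 passed. All 7 listed mouse genes and all 9 listed hepatoma genes met the RPKM minimum. Read totals per library are not in the tables, so counting depth is unknown. Over all genes tested the median log2 change was -0.56 in the mouse comparison, 1.58 in hepatoma and 0.53 in regeneration. Hepatoma libraries 1 and 2 stood apart from 3 and 4 in hepatocyte transcripts: Alb, encoding albumin, was at 0.981% and 0.0325% of the control mean in the first pair and at 18.7% in both of the others.

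In DEN liver with tumours all 7 listed genes fell, and in none did the groups overlap. Over all 3684 genes tested, 49.5% passed as lower and 75.1% had lower values without overlap, so a lower call was common in this table. The median log2 change of the 7 genes was -1.62, beside -0.56 over all genes. With library medians set equal 3 of the 7 passed as lower, and after quantile normalization 3 did. Prodh fell furthest, to 8.60% of its earlier mean, and Prodh2 and Fah fell least, to 64.9% and 58.6%.

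Prodh (gene identifier 19125 in mouse, 680409 in rat) measured 41.4, 53.2 and 53.2 RPKM before tumours and 4.07, 6.23 and 2.41 RPKM with tumours. The lowest earlier library was above the highest tumour library by a wide margin. The means were 49.3 ± 6.82 (SD, n = 3) and 4.24 ± 1.92 RPKM (SD, n = 3), and the log2 fold change was -3.32 ± 0.26 (limma, Benjamini-Hochberg adjusted p = 0.00038). Prodh kept this call under all 14 alternative settings. Prodh2 (identifier 56189 in mouse, 361538 in rat) stood at 51.0, 64.8 and 50.9 RPKM before and at 36.9, 31.5 and 39.9 RPKM with tumours. The fall of -0.61 ± 0.16 (limma, Benjamini-Hochberg adjusted p = 0.0426) was about the size of the shift of all genes, from which it differed by -0.05. The call was lost when any 1 of the 6 libraries was left out, with adjusted p from 0.0682 to 0.187, and the direction turned under quantile normalization (0.05). Of this pair, Prodh changed far beyond the shift of the table and Prodh2 by about that shift.

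In mouse, Prodh overlaps Dgcr6 on the opposite strand in the GENCODE M21 annotation, and Dgcr6 fell as well (-1.22 ± 0.15, limma, Benjamini-Hochberg adjusted p = 0.00148). The sources used here do not state that counting used strand, so reads in the shared stretch cannot be told apart. Around Prodh in the proline route, Oat, which interconverts ornithine and the proline intermediate pyrroline-5-carboxylate, fell from 106 ± 31.6 to 12.0 ± 6.63 RPKM (-3.13 ± 0.37). Oat is also a marker of perivenous hepatocytes. Hoga1, the last enzyme of hydroxyproline breakdown, fell by 0.90 on the log2 scale. It passed under neither scaling, that is, with library medians set equal or after quantile normalization. Aldh4a1, which finishes proline oxidation, was at 93.7 ± 9.56 and 57.9 ± 17.8 RPKM and did not pass (limma, Benjamini-Hochberg adjusted p = 0.0815). The synthetic enzyme Aldh18a1, which makes pyrroline-5-carboxylate from glutamate, rose from 0.722 ± 0.113 to 5.59 ± 1.47 RPKM (1.91 ± 0.18, limma, Benjamini-Hochberg adjusted p = 0.00052), under all 13 alternatives that kept it. Aldh18a1 was under 1 RPKM in every library before tumours, so it met the minimum through the tumour libraries alone. Of 8 other proline and hydroxyproline genes, 6 were listed and 5 tested, of which 1 rose, 2 fell and 2 did not pass. Pycr1, the final enzyme of proline synthesis in mitochondria, was under the RPKM minimum at 0.0799 ± 0.0618 and 0.581 ± 0.135 RPKM.

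**Figure D1:**
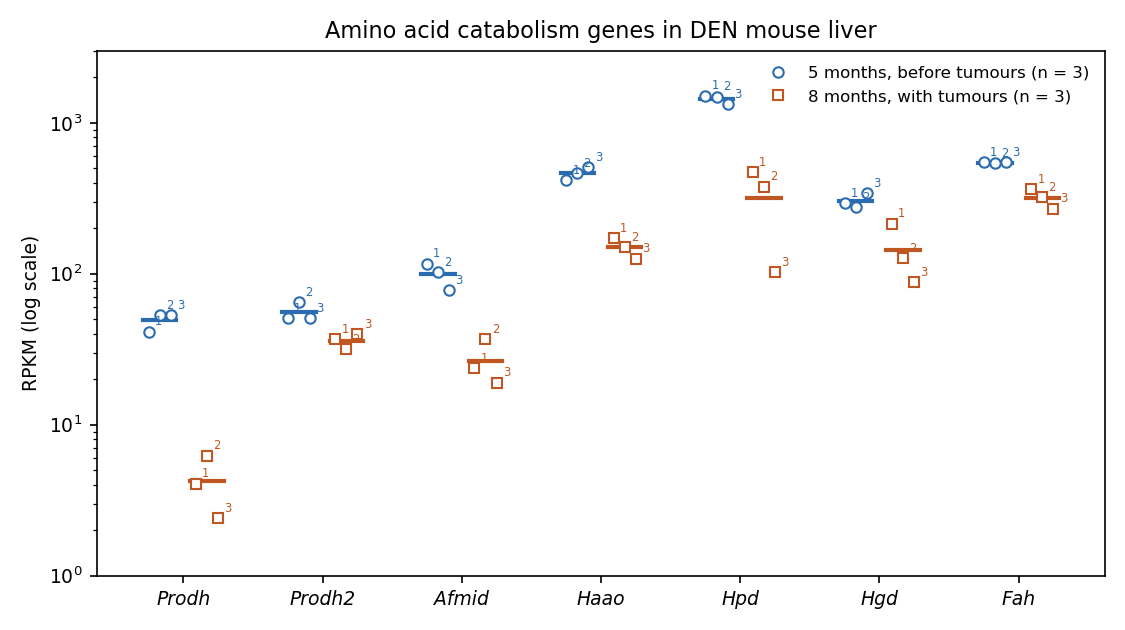
RPKM (log axis) of the 7 listed genes in each DEN liver library, circles before tumours and squares with tumours, numbered by library, with group means as bars. The groups do not overlap at any of the 7 genes, and the gap is widest at Prodh, from 49.3 to 4.24 RPKM.

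Along the kynurenine route, both listed genes fell beyond the shift of the table. Afmid (identifier 71562 in mouse, 688283 in rat), which releases kynurenine from its formyl precursor, was at 117, 103 and 77.6 RPKM before and at 23.6, 36.8 and 19.0 RPKM with tumours. Its log2 fold change was -1.90 ± 0.25 (limma, Benjamini-Hochberg adjusted p = 0.00266). Haao (identifier 107766 in mouse, 56823 in rat) stood at 415, 462 and 508 RPKM before and at 173, 150 and 126 RPKM with tumours, a change of -1.62 ± 0.17 (limma, Benjamini-Hochberg adjusted p = 0.000849). Both genes kept their calls under all 14 alternatives. Of 13 other genes of the route, 5 were listed and tested, and 4 fell. Ido2, a dioxygenase at its entry, fell from 28.3 ± 2.67 to 10.7 ± 1.21 RPKM, and Kynu, which acts between Kmo and Haao, fell from 58.2 ± 6.96 to 22.9 ± 3.76 RPKM. Aadat, an aminotransferase that takes kynurenine to kynurenic acid, fell furthest of the list, from 60.6 ± 8.99 to 12.3 ± 2.26 RPKM (-2.22 ± 0.17). Aldh8a1, which acts on the branch towards complete oxidation, went from 148 ± 16.8 to 73.8 ± 20.0 RPKM and also fell, but passed under neither scaling (-0.63 with medians set equal and -0.25 after quantile normalization). Ccbl1, another kynurenine aminotransferase, was at 62.8 ± 1.78 and 93.2 ± 15.4 RPKM and did not pass (limma, Benjamini-Hochberg adjusted p = 0.0578), but passed as higher under both scalings.

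Tyrosine breakdown held the most abundant transcripts of the 9 genes. Hpd (identifier 15445 in mouse, 29531 in rat), which makes homogentisate, was at 1512, 1491 and 1335 RPKM before and at 469, 377 and 102 RPKM with tumours. The tumour libraries were spread 4.60-fold, and the change was -2.45 ± 0.54 (limma, Benjamini-Hochberg adjusted p = 0.0299). Hgd (identifier 15233 in mouse, 360719 in rat), which opens the ring of homogentisate, went from 293, 278 and 341 to 215, 126 and 88.1 RPKM (-1.17 ± 0.30, limma, Benjamini-Hochberg adjusted p = 0.0409). Fah (identifier 14085 in mouse, 29383 in rat), the final enzyme, went from 548, 539 and 548 to 365, 323 and 270 RPKM (-0.78 ± 0.16, limma, Benjamini-Hochberg adjusted p = 0.0152). The order of levels changed with these falls. Before tumours Hpd was above Fah and the pair did not overlap, while with tumours their means were 316 ± 191 and 319 ± 47.9 RPKM and their libraries overlapped.

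These 3 calls were not firm. Without tumour library 3 the change of Hpd was smaller, -1.78 (limma, Benjamini-Hochberg adjusted p = 0.00121). Without 1 of the libraries before tumours, Hpd had an adjusted p from 0.092 to 0.104. Hgd lost its call without any 1 of the libraries before tumours and without tumour library 2 or 3, with adjusted p from 0.0755 to 0.152. Fah lost it without library 1 or 2 before tumours or tumour library 3, with adjusted p from 0.0544 to 0.0647. With library medians set equal Hpd, Hgd and Fah did not pass (-2.06, -0.78 and -0.385). After quantile normalization they did not pass either (-1.53, -0.37 and 0.01). All 4 of the listed genes among 6 others of phenylalanine and tyrosine breakdown fell. Qdpr, Gch1 and Pcbd2, which serve pterin cofactor supply, had changes of -1.18, -1.08 and -0.75, and Gstz1, between Hgd and Fah, had -0.91. With library medians set equal 1 of the 4 passed, and after quantile normalization none did.

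In mouse Hpd overlaps Psmd9, a proteasome assembly gene on the opposite strand, which fell by 0.61 on the log2 scale (limma, Benjamini-Hochberg adjusted p = 0.0164). Hal was not listed for DEN liver, but 3 of 6 other histidine genes were, and all 3 fell. Uroc1 and Ftcd, which act after Hal, went from 146 ± 34.6 to 80.5 ± 7.42 RPKM and from 115 ± 8.43 to 64.8 ± 5.02 RPKM, and Hnmt, which methylates histamine, went from 19.5 ± 2.40 to 8.64 ± 4.5 RPKM. None of the 3 passed under either scaling. Outside these routes, 22 of 36 other amino acid breakdown genes were listed, and 21 of them fell, with a median log2 change of -1.12, in a table where 49.5% of all genes tested did. With library medians set equal 8 of the 22 passed as lower, and after quantile normalization 3 did.

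Tumour library 3 was the lowest library at 6 of the 7 genes, 85.7%, against 29.9% of all genes tested and 37.1% of genes that passed as lower. Prodh2 was the exception, at 71.7% of its earlier mean there. Of 11 hepatocyte markers 6 were listed, of which 3 rose (Alb, Apoa1 and Ahsg), 2 fell (Apoa2 and Cyp2e1) and 1 did not pass. Their summed level was 64790 to 78520 RPKM before and 151700 to 170700 RPKM with tumours, and Alb stood at 320% to 349% of its earlier mean. After quantile normalization the change of Alb was 0 and did not pass, while Serpina1 passed as higher. Apoa2 did not pass with library medians set equal. Apoa1, Ahsg and Cyp2e1 kept their calls under both scalings. None of the markers was at 0. Perivenous markers moved down: the 10 genes summed to 4766 to 5271 RPKM before and 338 to 799 RPKM with tumours, and 9 of 9 tested fell, Oat and Cyp2e1 among them. The 3 listed of 10 periportal genes summed to 985 to 1141 RPKM before and 150 to 291 RPKM with tumours, with 2 lower and 1 higher. Cyp2f2 carried that sum, going from 944 ± 84.5 to 145 ± 77.6 RPKM. Cdh1 rose from 13.4 ± 3.63 to 36.7 ± 4.93 RPKM, and Igf1 fell, though under neither scaling. Cell division genes rose in 6 of 6 tested. Of other cell types, 4 endothelial genes were tested, of which 3 rose, such as Emcn from 2.89 ± 0.293 to 9.62 ± 3.26 RPKM, and 1, Tie1, fell, though under neither scaling. Acta2 of stellate cells and Sox9 of bile duct cells, the only listed genes of their lists, rose by 1.70 and 1.26 on the log2 scale. Of 4 macrophage genes tested Cd68 and Lyz2 rose, Clec4f fell, though under neither scaling, and Vsig4 did not pass, with a summed level over 5 listed genes of 91.6 to 112 RPKM before and 83.8 to 115 RPKM with tumours. The part of zonation, cell division or these other cells in the fall of the catabolic genes was not tested.

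In Morris hepatoma all 9 genes were below control liver with no overlap between groups, and 7 of the 9 passed as lower. Over the 8233 genes tested, 8.73% passed as lower and 11.4% lay lower without overlap, while 7042 genes passed as higher. The median log2 change of the 9 genes was -3.90, beside 1.58 over all genes. With library medians set equal all 9 passed as lower, Haao at -5.88 and Hpd at -7.16 among them. After quantile normalization 7 passed, and Haao (-4.86) and Hpd (-6.00) did not. Hal was lowest relative to control, at 2.95% of the control mean, and Afmid was highest, at 17.0%.

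Prodh measured 24.8, 40.4 and 6.41 RPKM in control liver and 0.385, 0.0501, 1.80 and 2.63 RPKM in hepatoma. Control library 3 was 6.31 times below control library 2, yet still above every hepatoma library. The change was -3.35 ± 0.74 (limma, Benjamini-Hochberg adjusted p = 0.0136), and the call was lost without control library 1 (adjusted p = 0.0664). Prodh2 measured 74.7, 73.8 and 46.6 RPKM in control liver and 1.17, 0.0932, 11.9 and 10.6 RPKM in hepatoma (-3.90 ± 1.01, limma, Benjamini-Hochberg adjusted p = 0.03). Its call was lost without control library 1, 2 or 3 or hepatoma library 1, with adjusted p from 0.0812 to 0.113. The 250 bases before the rat Prodh2 start (chr1:94880837-94881086, + strand, GRCr8) are shown because this is the only one of the 9 genes listed in all 3 comparisons. All promoters are given 5′ to 3′ in the direction of their gene. Capitals mark an HNF1 motif, GTTAAT, on either strand, and a CCAAT box, here read as ATTGG from the opposite strand.
Prodh2: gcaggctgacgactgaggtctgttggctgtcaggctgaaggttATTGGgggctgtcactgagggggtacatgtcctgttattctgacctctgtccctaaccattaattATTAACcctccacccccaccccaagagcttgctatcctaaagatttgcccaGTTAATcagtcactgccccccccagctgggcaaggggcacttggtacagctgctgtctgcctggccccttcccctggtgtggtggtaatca
The GTTAAT letters stand at -142 and -91 from the start, counted to the first base of each match. Of the 7 members with a rat promoter in the RefSeq table, Prodh2 and Hpd held this motif in the window of 250 bases before to 50 after the start, as did 7.45% of all 33469 promoters. CCAAT was in 3 of the 7 and in 37.5% of all promoters. Prodh and Hal have no entry in that table.

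The proline route split by direction in hepatoma. All 4 listed genes of breakdown or of the ornithine branch fell: Aldh4a1 from 121 ± 64.1 to 29.6 ± 5.88 RPKM, Hoga1 from 95.8 ± 28.0 to 15.1 ± 10.2 RPKM, Grhpr, which reduces glyoxylate, from 315 ± 164 to 31.0 ± 22.7 RPKM, and Oat from 133 ± 69.6 to 44.9 ± 6.94 RPKM. The Oat call held under 9 of 16 alternatives, which include the fit without hepatoma libraries 3 and 4 that was added after seeing the data. All 3 listed genes of synthesis rose. Aldh18a1 was at 0.232, 0.168 and 0.332 RPKM in control liver and at 29.9, 43.6, 22.7 and 24.7 RPKM in hepatoma (4.61 ± 0.22, limma, Benjamini-Hochberg adjusted p = 5.1e-07). Every hepatoma library was thus far above every control library. Hepatoma libraries 1 and 2, the lower pair at Prodh, were the higher pair at Aldh18a1. The pyrroline-5-carboxylate reductase Pycr1, which completes proline, rose from 0.955 ± 0.493 to 20.8 ± 5.43 RPKM. Its cytosolic relative Pycrl went from 17.8 ± 1.32 to 48.6 ± 9.19 RPKM, a rise of 1.39 on the log2 scale, but it fell by 0.52 with library medians set equal and was at 0.05 after quantile normalization. Aldh18a1 and Pycr1 stayed higher under every alternative run. Both met the RPKM minimum through their hepatoma libraries. The size of the Aldh18a1 change ran from 3.15 to 6.44 over the alternatives, with control values below the added 1 RPKM.

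**Figure D2:**
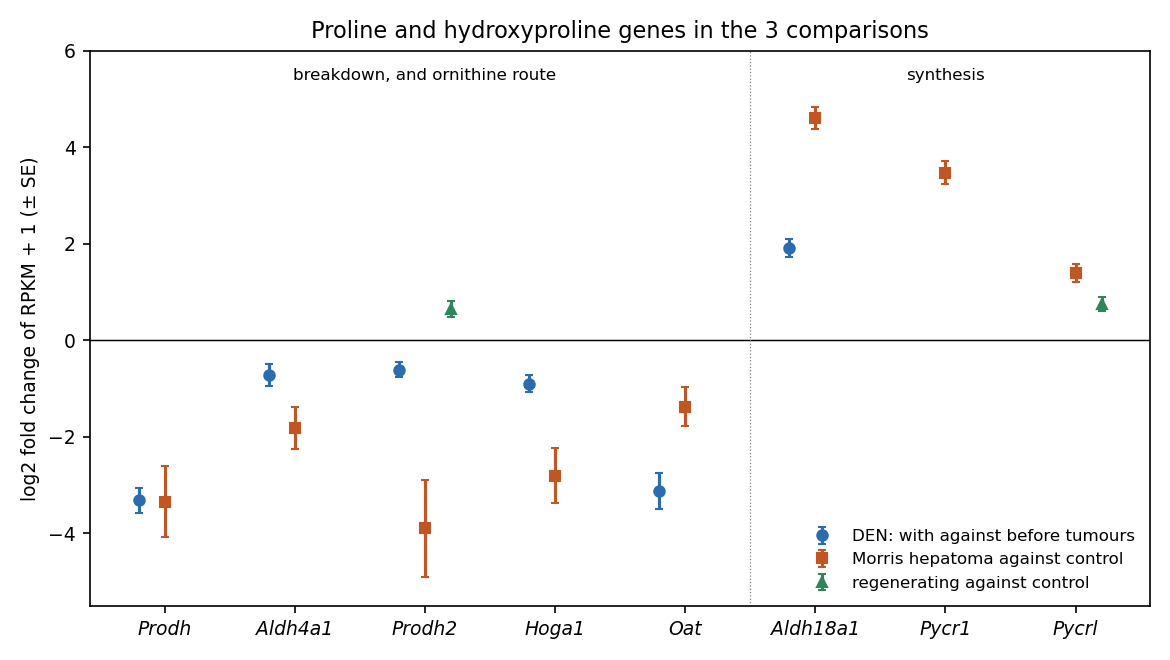
Log2 fold change of RPKM + 1 with SE (y axis) for genes of proline and hydroxyproline breakdown with the ornithine branch (left) and of proline synthesis (right), in DEN liver with tumours, Morris hepatoma and regenerating liver, where tested. In hepatoma the breakdown genes lie between -1.38 and -3.90 and the synthesis genes between 1.39 and 4.61.

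In the kynurenine route Kmo (identifier 59113 in rat) and Afmid fell and Haao did not pass. Kmo, the flavin monooxygenase that hydroxylates kynurenine, was at 83.8, 89.2 and 38.2 RPKM in control liver and at 1.44, 1.86, 9.01 and 8.45 RPKM in hepatoma (-3.72 ± 0.66, limma, Benjamini-Hochberg adjusted p = 0.00425). Afmid measured 73.2, 78.8 and 24.5 RPKM in control liver and 5.43, 6.18, 14.4 and 14.0 RPKM in hepatoma (-2.39 ± 0.52, limma, Benjamini-Hochberg adjusted p = 0.00923). Haao measured 177, 206 and 101 RPKM in control liver and 1.86, 0.48, 41.4 and 29.0 RPKM in hepatoma. No hepatoma library reached a control library, but they were spread 86.2-fold among themselves, and the change of -4.19 ± 1.38 did not pass (limma, Benjamini-Hochberg adjusted p = 0.0744). Without hepatoma library 3, Haao passed (adjusted p = 0.0365).

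Neighbouring genes of the route lay the same way. Of 13 others, 6 were listed, 3 fell and 3 did not pass. Kynu fell from 125 ± 76.6 to 6.12 ± 6.73 RPKM, Aadat from 146 ± 59.0 to 11.8 ± 9.0 RPKM and Acmsd, which diverts the product of Haao away from NAD, from 6.82 ± 1.98 to 0.713 ± 0.771 RPKM. Tdo2, the liver dioxygenase that opens tryptophan, was at 388 ± 38.2 RPKM in control liver and at 5.34, 0.631, 92.2 and 73.0 RPKM in hepatoma, and did not pass (limma, Benjamini-Hochberg adjusted p = 0.0901). Qprt, which makes the NAD precursor from quinolinate, and Aldh8a1 did not pass either, at adjusted p of 0.101 and 0.0638 by the same test. With library medians set equal all 6 passed as lower. The rat Kmo promoter (chr13:90089271-90089520, + strand, GRCr8) is shown as the only one of the 7 with a match to the HNF4 core CAAAGTCCA. Capitals mark that core, read as TGGACTTTG on this strand and sharing bases with a CCAAT box (ATTGG), and a TCF/LEF motif, CTTTGA.
Kmo: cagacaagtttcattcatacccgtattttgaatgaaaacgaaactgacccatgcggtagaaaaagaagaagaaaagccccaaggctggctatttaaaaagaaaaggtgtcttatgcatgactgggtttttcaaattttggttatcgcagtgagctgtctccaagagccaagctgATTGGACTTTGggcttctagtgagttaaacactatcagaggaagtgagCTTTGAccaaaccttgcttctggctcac
The HNF4 core, at -74, was in 0.391% of all promoters of the table. CTTTGA, at -28, was found also in Haao and in 16.1% of all promoters. These matches are descriptions of letters, and no binding was measured.

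Tyrosine genes in hepatoma followed the same pattern over libraries. Hpd measured 2118, 2318 and 843 RPKM in control liver, the highest of the 9 genes, and 19.6, 1.39, 220 and 240 RPKM in hepatoma. Its 173-fold spread within hepatoma was the widest of the 9, and the change of -5.32 ± 1.82 did not pass (limma, Benjamini-Hochberg adjusted p = 0.0853). It passed without hepatoma library 2 (-3.96, adjusted p = 0.0292). Hgd was at 158, 180 and 62.5 RPKM in control liver and at 2.14, 0.563, 17.5 and 13.1 RPKM in hepatoma (-4.35 ± 1.03, limma, Benjamini-Hochberg adjusted p = 0.0211). Fah was at 262, 290 and 139 RPKM in control liver and at 7.18, 4.43, 42.7 and 36.3 RPKM in hepatoma (-3.75 ± 0.88, limma, Benjamini-Hochberg adjusted p = 0.0182). The Hgd call was lost without control library 1 or 2 or hepatoma library 1 (adjusted p from 0.0604 to 0.0916), and the Fah call without any 1 control library (adjusted p from 0.0532 to 0.0834). Of 6 other genes of this route 3 were listed. Gstz1 fell from 325 ± 156 to 26.6 ± 16.2 RPKM and Pcbd1 from 458 ± 155 to 129 ± 31.7 RPKM. Tat, which starts tyrosine breakdown, was at 484 ± 9.16 and 73.8 ± 84.7 RPKM and did not pass (limma, Benjamini-Hochberg adjusted p = 0.17).

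The promoter of rat Hgd (chr11:76643768-76644017, - strand, GRCr8) is shown for its C/EBP motif TTGCNNAA, which occurs at -62 and -9, both read from the opposite strand and marked in capitals with a CCAAT box (ATTGG).
Hgd: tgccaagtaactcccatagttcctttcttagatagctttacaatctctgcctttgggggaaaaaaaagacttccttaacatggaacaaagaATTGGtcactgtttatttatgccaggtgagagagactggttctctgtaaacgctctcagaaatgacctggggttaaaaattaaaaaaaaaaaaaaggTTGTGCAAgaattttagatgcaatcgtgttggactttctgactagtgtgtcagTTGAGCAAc
Hgd alone of the 7 had this C/EBP motif, which 10.6% of all promoters held. The TATA box letters TATAAA were in none of the 7 and in 14.2% of all promoters. An absent match says only that these letters are not in the window.

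Hal (identifier 29301 in rat) was at 93.3, 86.0 and 22.1 RPKM in control liver and at 0.511, 0.0384, 4.39 and 2.99 RPKM in hepatoma. The change was -4.58 ± 0.81 (limma, Benjamini-Hochberg adjusted p = 0.00531). Amdhd1, which acts after urocanate in the same route and lies next to Hal in the rat RefSeq annotation, fell from 7.91 ± 5.16 to 0.286 ± 0.217 RPKM. Ftcd fell from 57.2 ± 19.4 to 4.71 ± 4.74 RPKM, so both listed genes of 6 others in histidine breakdown fell. Lta4h, on the other side of Hal, rose by 2.46 ± 0.18 (limma, Benjamini-Hochberg adjusted p = 3.13e-06). Among 36 other amino acid breakdown genes 25 were tested in hepatoma, 18 fell, none rose and 7 did not pass, with a median log2 change of -2.70.

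**Figure D3:**
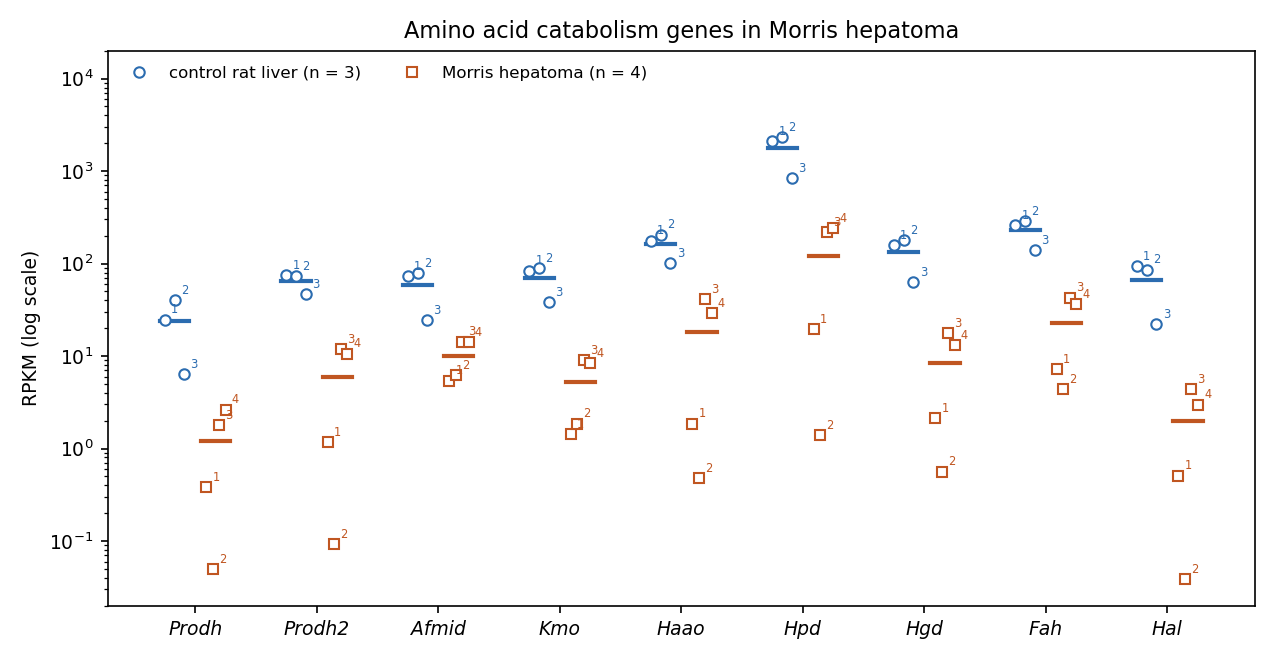
RPKM (log axis) of the 9 genes in each rat library, circles for control liver and squares for Morris hepatoma, numbered by library, with group means as bars. Hepatoma libraries 1 and 2 lie below 3 and 4 at every one of the 9 genes, and control library 3 is the lowest control.

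The 9 genes shared a split among the libraries. Hepatoma libraries 1 and 2 were both below 3 and 4 at all 9, as at 14.0% of genes tested and 86.8% of genes that passed as lower. Control library 3 was the lowest control at all 9, as at 54.7% and 86.6%. The 9 genes stood at a median of 1.61% and 0.297% of the control mean in hepatoma libraries 1 and 2, and at 13.2% and 13.7% in libraries 3 and 4. The 10 listed hepatocyte markers had medians of 1.03% and 0.0448% in the first pair and 21.2% and 20.4% in the other. Their sum was 106800 to 136200 RPKM in control liver and 109.7 to 29780 RPKM in hepatoma, with 1 marker value at no reads. In a fit added after seeing the data, hepatoma libraries 3 and 4 were left out. Since these were the higher pair at all 9 genes, the choice itself makes the changes larger, and the values are a description only: all 9 passed as lower, with Haao at -6.24 (limma, Benjamini-Hochberg adjusted p = 5.7e-05) and Hpd at -7.84 (adjusted p = 0.000787).

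Within the libraries poorest in hepatocyte transcripts the 9 genes were not equally low. Afmid was at 9.23% and 10.5% of its control mean in hepatoma libraries 1 and 2, while the other 8 genes were at most at 3.12% and 2.64%. Kmo was at 2.04% and 2.64% and Fah at 3.12% and 1.93%. The highest of the hepatocyte markers, Hnf4a and Tf, were at 2.11% in library 1 and 0.463% in library 2. Markers of other cells moved too. The 6 listed macrophage genes summed to 161 to 199 RPKM in control liver and 760 to 1373 RPKM in hepatoma, a sum carried by Lyz2, which went from 26.0 ± 21.4 to 785 ± 304 RPKM. Of the 6, 4 rose and Clec4f, a marker of the resident Kupffer cells, fell from 80.4 ± 10.9 to 16.0 ± 11.4 RPKM, while Cd5l, at 34.0 ± 4.90 and 5.51 ± 5.81 RPKM, did not pass. With library medians set equal 2 rose and 2 fell. The 7 stellate and fibroblast genes summed to 20.2 to 84.6 RPKM in control liver and 471 to 1195 RPKM in hepatoma, and 7 of 7 rose, or 4 of 7 with medians set equal. The part of these cells in the levels of Afmid, Kmo or Fah was not tested.

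**Figure D4:**
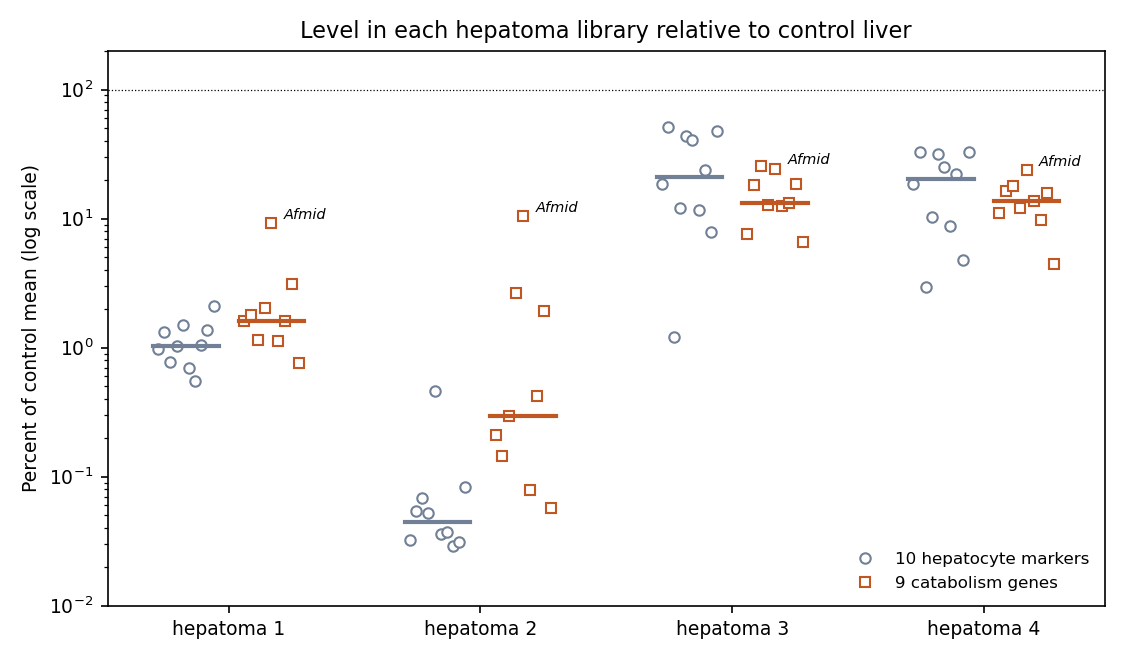
Level in each hepatoma library as percent of the control mean (log axis) for 10 hepatocyte markers (circles) and the 9 catabolism genes (squares), with medians as bars. In hepatoma library 2 the medians are 0.0448% and 0.297%, and Afmid stands at 10.5%.

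Afmid lies head to head with Tk1, the thymidine kinase of the cytosol that dividing cells use, and the pair moved differently in mouse and rat. In DEN liver Tk1 was at 16.4, 18.0 and 17.9 RPKM before and at 8.72, 6.91 and 6.07 RPKM with tumours, so it fell together with Afmid (-1.17 ± 0.15, limma, Benjamini-Hochberg adjusted p = 0.00192). After quantile normalization its change of -0.70 did not pass (adjusted p = 0.0646). Birc5, another cell division gene, on the other side of Afmid, rose by 0.99 ± 0.16. In hepatoma Tk1 went from 4.23, 5.00 and 6.06 to 30.6, 61.7, 45.2 and 36.1 RPKM (2.83 ± 0.25, limma, Benjamini-Hochberg adjusted p = 8.35e-06), against the fall of Afmid. In regenerating liver, where Afmid was not listed, Tk1 reached 30.6, 43.6, 25.9 and 48.6 RPKM (2.61 ± 0.22, limma, Benjamini-Hochberg adjusted p = 0.00221). The mouse genes overlap at their starts on opposite strands in GENCODE M21, so reads of mouse Tk1 and Afmid in that stretch cannot be told apart without strand. The rat genes do not overlap in the RefSeq annotation of GRCr8, but the annotation used for counting is not known. The 96 bases between the rat starts (chr10:103544778-103544873, + strand, GRCr8) are shown because the pair shares them, with Tk1 to the left and Afmid to the right.
Tk1 to Afmid: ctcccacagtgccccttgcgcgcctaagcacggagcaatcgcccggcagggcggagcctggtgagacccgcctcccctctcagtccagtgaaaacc
None of the motifs searched was found in it.

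In regenerating liver Prodh2 was the only listed gene of the 9. It stood at 97.5, 104, 102 and 98.8 RPKM in regenerating liver beside the same controls at 74.7, 73.8 and 46.6 RPKM. The regenerating libraries were close together, at 101 ± 2.85 RPKM (SD, n = 4), and all were above the controls, which is what 89.4% of the 1703 genes tested showed. The change of 0.65 ± 0.17 did not pass (limma, Benjamini-Hochberg adjusted p = 0.102), where 21.2% of genes tested passed as higher. It was close to the median of all genes, 0.53, and with library medians set equal it was -0.16. Prodh2 passed (adjusted p = 0.00753) only when p-values were adjusted over the genes tested in place of all annotated genes. Of the synthesis genes, Pycrl rose from 17.8 ± 1.32 to 31.1 ± 5.72 RPKM, but it passed under neither scaling and was at -0.03 with medians set equal. Aldh18a1 was under the RPKM minimum, at 0.244 ± 0.0828 and 0.809 ± 0.276 RPKM. Qprt rose from 34.4 ± 4.85 to 56.6 ± 5.77 RPKM (limma, Benjamini-Hochberg adjusted p = 0.0413), again not under the scalings, and Hdc, which makes histamine, was at 0.422 ± 0.229 and 2.19 ± 1.10 RPKM and did not pass. Cell division genes rose in 5 of 7 tested, and in 1 of 7 after quantile normalization.

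A direct comparison of hepatoma with regenerating liver was possible for genes listed in both rat tables, 1752 in all, of which 1673 were tested. Prodh2 was listed as lower in hepatoma and higher in regeneration than the same controls, with deposited log2 ratios of -3.46 and 0.63. A gap in this direction was thus set by that selection, and its p-value is no independent support. Prodh2 was lower in hepatoma, with a log2 fold change of -4.55 ± 0.87 (limma, Benjamini-Hochberg adjusted p = 0.0288), with 1.17, 0.0932, 11.9 and 10.6 RPKM against 97.5 to 104 RPKM. In that comparison 4.0% of genes passed as lower and 5.92% lay lower without overlap. The call was lost without hepatoma library 1 (adjusted p = 0.0957) and without any 1 regenerating library (adjusted p from 0.0983 to 0.102). Aldh18a1 was higher in hepatoma than in regenerating liver, by 4.08 on the log2 scale, and kept that under all 17 alternatives. It met the RPKM minimum of this fit through its hepatoma libraries. Pycrl was higher by 0.63 and turned to -1.04 with medians set equal. Qprt, at -3.22, did not pass (limma, Benjamini-Hochberg adjusted p = 0.0989). Tk1 differed by 0.21 ± 0.24 (limma, Benjamini-Hochberg adjusted p = 1), and with medians set equal it was lower in hepatoma (-1.46).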

How the data were processed

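Livers were sequenced as total RNA libraries, 17 in all. The authors deposited 3 tables of values per library with 0.001 for no reads; the headers name no unit, and the deposited values were read as RPKM because low values moved in steps with transcript length. Per the file headers, further columns hold a log2 ratio of group means and a p-value. The deposited log2 ratio matched the recomputed one within 0.01, and the deposited p-value matched an unadjusted comparison of linear RPKM within 1%, in all 4649, 9082 and 2093 genes. The header of that column speaks of Holm's method. Aligner, genome build and read counting are not given in the sources used here, so no coordinates of the measured genes are printed.

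For testing, log2(RPKM + 1) was fitted with limma 3.58.1 (R 4.3.3, trend and robust settings) for genes with at least 1 RPKM in n libraries, n being the smaller group's size. P-values were adjusted over 21951 mouse (GENCODE M21) or 23154 rat (RefSeq, GRCr8) protein-coding genes, because the tables had already been restricted by the deposited p-value. Alternatives changed the pseudocount, filter, scaling, adjustment, variance settings, block and libraries; leaving out hepatoma libraries 3 and 4 together was added after seeing the data. The fit was tested on simulated data with 200 changed genes and the same selection by an unadjusted p under 0.05. Of 175 simulated calls in DEN liver 19 were false, as were 15 of 130 in hepatoma and 11 of 194 in regeneration. In the same order, 60.2%, 41.4% and 84.3% of 2-fold changes were found, and 95.1%, 77.5% and 99.0% of 4-fold changes. The simulated tables listed 1236, 1250 and 1338 genes in that order, fewer than the 4649, 9082 and 2093 of the deposited tables. Whether these rates hold for the deposited tables was not tested.

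The 9 genes, the pathway and marker lists and the motifs were chosen with earlier results of these data known. Named were all 9 genes, the listed genes of the 4 routes, and neighbours in the annotation where listed; some genes of the lists are not reported here. Promoter sequences came from RefSeq (GRCr8), in which 7 of the 9 genes matched.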

Additional observations from a re-analysis of the deposited data

Results flagged for a closer look

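Prodh2 differed between hepatoma and regenerating liver by a log2 difference of -4.55 (limma, Benjamini-Hochberg adjusted p = 0.0288), being lower in all 4 hepatoma libraries than in all 4 regenerating libraries. This is the difference between 2 groups set against the same controls. Prodh2 entered the comparison through its deposited p-values, as lower in hepatoma and higher in regeneration than those controls. A gap in this direction was thus set by that selection, and the adjusted p adds no independent support.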

How the results depend on the processing

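Prodh, Haao and Afmid in DEN liver passed under all 14 alternatives, and no other gene of the 9 did so in any comparison. In DEN liver 7 of the 9 genes passed; 4 did with a 5 RPKM filter, 3 with library medians set equal, 3 after quantile normalization, and 3 to 6 with 1 library left out. After quantile normalization the changes of Prodh2 and Fah turned to 0.0542 and 0.0135. The 2481 genes that passed in the whole table became 1361 with the filter, 1627 with medians equal (925 higher, 702 lower), 1472 after quantile normalization (883 and 589) and 1347 to 2593 with 1 library left out. In hepatoma 7 of the 9 genes passed, 9 with medians equal, 7 after quantile normalization, 9 with adjustment over the genes tested or without the trend and robust settings, 6 with a pseudocount of 0.1, and 3 to 8 with 1 library left out, the fewest without control library 1 (3) or 2 (4). The fit of all 3 rat groups held only genes listed in both tables, so Prodh2 was the 1 of the 9 that could pass; over all genes 1621 passed there. The 7761 calls over all genes became 4635 with medians equal (2263 higher, 2372 lower) and 4392 after quantile normalization (2514 and 1878). In regeneration Prodh2 alone could pass, and did (1) with adjustment over the genes tested; its change turned to -0.16 with medians equal. The 374 calls over all genes became 153 with the filter, 106 with medians equal (36 and 70), 66 after quantile normalization (20 and 46), 1626 with adjustment over the genes tested, 246 with all 3 groups and 21 to 353 with 1 library left out. Between hepatoma and regeneration Prodh2 passed in the fit as reported but not (0) with a pseudocount of 0.1, and in 0 to 1 with 1 library left out; over all genes 1419 became 928 after quantile normalization (495 and 433), and medians equal gave 474 higher and 488 lower. For changes under the scalings, the cause was not tested.

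The labels do not say whether libraries with the same replicate number belong together. Correlations of deviations from the group means between same-numbered libraries were -0.159 to -0.022 in DEN liver and -0.22 to -0.152 in hepatoma. In regeneration they were -0.317 to 0.151. Deviations within such small groups depend on each other, so these values cannot decide whether same-numbered libraries shared a batch. With a replicate block 6 of the 9 genes passed in DEN liver, 0 in hepatoma and 0 between hepatoma and regeneration, and 25 genes passed in regeneration over all genes. The block adds terms to fits of few libraries, and no control library carries number 4. A drop in calls under the block cannot be told apart from this loss of precision.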
